A study of Mus musculus with 8 samples.

Results

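The chemokine genes Cxcl1, Cxcl2, Cxcl3 and Cxcl5 were followed through the transcriptomes of peritoneal macrophages treated with LPS, with the small molecule C498, or with both. They were chosen by name, as the CXC chemokines that draw neutrophils into tissue, and make up 4 of the 55801 genes of the deposited table. Each name was found in a usable row, and all 4 passed the filter on low values that left 12189 tested genes. The cells came from male C57BL/6 mice aged 6 to 8 weeks that had received thioglycollate broth days before, which draws macrophages into the abdominal cavity. Vehicle cells (NC) received DMSO, C498 cells received the compound at 15 µM, LPS cells received vehicle for 0.5 h and then LPS at 100 ng/ml for another 4 h, and C498+LPS cells received the compound for 0.5 h before the same LPS. LPS is the endotoxin of Gram-negative bacteria, and the study asked whether C498, picked in a reporter screen for JAK/STAT and NFκB signaling, changes the response to it. Each group had 2 samples, 8 in all, and the sources do not say whether the samples of a group came from separate mice, so p-values measure the spread between these samples, which may be technical.

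Chemokines are small secreted proteins that set up a gradient along which leukocytes crawl. The CXC chemokines that carry the motif glutamate-leucine-arginine (ELR) just before their first cysteines bind the receptor Cxcr2 on neutrophils, and macrophages of the peritoneum are among the cells that release them within hours of sensing bacteria. LPS is sensed by Tlr4 with Cd14 and Ly96, and the signal runs through Myd88 and the IRAK kinases to NFκB, which switches on these genes. Their transcripts carry AU-rich elements that recruit decay factors such as Zfp36, so the level of a transcript depends on its synthesis and on its decay.

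All 4 genes lie on the plus strand of chromosome 5 in GENCODE M21 (build GRCm38), in a cluster that held 7 protein-coding genes within 146579 bases. Cxcl5 (ENSMUSG00000029371) lies at chr5:90759360-90761624, Cxcl3 (ENSMUSG00000029379) at chr5:90786103-90789600, Cxcl1 (ENSMUSG00000029380) at chr5:90891241-90893115 and Cxcl2 (ENSMUSG00000058427) at chr5:90903871-90905938. Cxcl1 and Cxcl2 are neighbours with 10755 bases between them, and the other genes of the cluster are Ppbp, Pf4 and Cxcl15. Each member has 4 exons. The build used for the deposited values is not given in the sources used here, but the gene lengths in the table equal the M21 transcript lengths of all 4 members (953 bases for Cxcl1, 1109 for Cxcl2, 1016 for Cxcl3 and 1575 for Cxcl5).

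The motif that gives the group its function is shown here as coding sequence of the M21 transcripts, 30 bases each, with the codons of the ELR motif in capitals and the codons of the cysteines with 1 residue between them following at once. The first capital codon is number 30 of the coding sequence of Cxcl1, number 33 of Cxcl2 and Cxcl3, and number 50 of Cxcl5.
Cxcl1: gccaatGAGCTGCGCtgtcagtgcctgcag
Cxcl2: gccagtGAACTGCGCtgtcaatgcctgaag
Cxcl3: gccagtGAGCTGCGCtgtcagtgcctgaac
Cxcl5: gcaacgGAGCTGCGTtgtgtttgcttaacc
Over the whole coding sequence, Cxcl2 and Cxcl3 were identical at 89.8% of aligned bases and shared a run of 110 bases in their transcripts. That run is shorter than a read of 150 bases, but reads could still have been divided wrongly between Cxcl2 and Cxcl3 in the quantification, so the values of this pair are less certain. Cxcl1 was identical to Cxcl2 at 75.6% and to Cxcl3 at 72.6%, with no shared run over 23 bases, and Cxcl5 was the most distant member, at 47.9% to 49.0%.

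The sequence before the transcript start is shown for the members found in RefSeq's promoter windows (build GRCm38.p6), because they shared a run there. The windows held Cxcl1, Cxcl2 and Cxcl3, and Cxcl5 was not analysed here. Each line holds the 130 bases that end just before the RefSeq start, at chr5:90891115-90891244 for Cxcl1, chr5:90903769-90903898 for Cxcl2 and chr5:90785971-90786100 for Cxcl3, all on the plus strand. Capitals mark the bases that match the κB consensus, the motif bound by NFκB.
Cxcl1: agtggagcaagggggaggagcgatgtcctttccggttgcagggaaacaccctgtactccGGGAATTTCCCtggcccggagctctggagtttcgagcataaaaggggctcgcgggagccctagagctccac
Cxcl2: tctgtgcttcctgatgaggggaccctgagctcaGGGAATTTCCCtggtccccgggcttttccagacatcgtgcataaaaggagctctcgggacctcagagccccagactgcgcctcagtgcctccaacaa
Cxcl3: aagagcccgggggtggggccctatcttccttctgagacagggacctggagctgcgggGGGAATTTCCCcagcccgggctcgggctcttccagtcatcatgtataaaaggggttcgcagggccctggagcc
The same 11 letters, GGGAATTTCCC, stood in all 3 windows. They were found on either strand in 14 of the 32851 windows of 300 bases in RefSeq, or 0.0426%. Each run holds 2 overlapping κB matches on opposite strands, and any κB match was present in 8.46% of all windows. The NFκB element of the luciferase reporter in which C498 was screened consists of letters within this run.

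The κB match began 71 bases before the RefSeq start in Cxcl1, 97 in Cxcl2 and 73 in Cxcl3. A TATA-like match (CATAAA or TATAAA, found in 22.8% of all windows) followed 36 bases later in Cxcl1, 39 in Cxcl2 and 43 in Cxcl3. The RefSeq start of Cxcl2 lies 28 bases downstream of its GENCODE start, and counted from the GENCODE starts the κB match began at -67 in Cxcl1, -69 in Cxcl2 and -75 in Cxcl3. Another run, CTCCAGACTCCAG, stood after the start in the 3 windows and in 4 of the 32851 windows in all. The AP-1 motif TGANTCA (7.81% of windows), the STAT motif TTCNNNGAA (8.3%) and the C/EBP motif, TTACNNAA or TTGCNNAA (18.5%), were searched on both strands and matched in none of the 3 windows, which says only that these letters are not there.

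**Figure D1:**
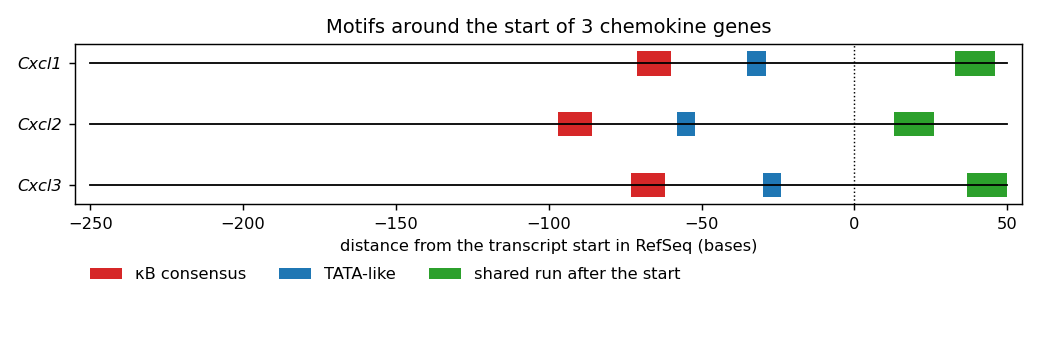
Map of the RefSeq windows of Cxcl1, Cxcl2 and Cxcl3, from 250 bases before to 50 bases after the transcript start (x axis, bases; dotted line, start). Red boxes mark κB matches, blue boxes TATA-like matches and green boxes the run of 13 letters after the start; the boxes stand in the same order in each gene, with those of Cxcl2 farther left.

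Levels are TPM, a unit that corrects each gene for its length and brings all samples to a common total, so levels of different genes can be compared per length. The table keeps no read numbers, so the depth behind a value is unknown. C498+LPS replicate 2 differed from its partner in markers of other cell types, with summed levels of 23.2 against 8.81 TPM for mast cell, 10.5 against 3.73 TPM for B and T cell, 29.4 against 17.8 TPM for mesothelial and 911 against 618 TPM for fibroblast markers, each the highest of the 8 samples. It also held less Cxcl1, Cxcl2 and Cxcl3 and more Cxcl5 than its partner, and the part of these markers in that was not tested. In NC cells, Cxcl1 stood at 12.7 and 12.1 TPM, and it reached 659 and 665 TPM with LPS. With C498 alone it stood at 131 and 114 TPM, and with C498+LPS at 1407 and 1207 TPM. The order of the group means was NC, C498, LPS, C498+LPS. Cxcl1, long known as KC, is a classic early product of LPS-treated macrophages.

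Cxcl2, known as MIP-2, was the most abundant member in every group but NC. It stood at 41.5 and 29.5 TPM in NC cells, at 2678 and 2680 TPM with LPS, at 755 and 646 TPM with C498 alone and at 4235 and 3503 TPM with C498+LPS. Its group means had the same order as those of Cxcl1. Cxcl3, a further Cxcr2 ligand, was the most abundant member in NC cells, at 64.2 and 57.9 TPM. It reached 1615 and 1720 TPM with LPS, stood at 82.6 and 72.8 TPM with C498 alone and at 735 and 527 TPM with C498+LPS. Here LPS was the group with the highest mean, and C498+LPS came below it.

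Cxcl5, known as LIX and described mainly in epithelial and stromal cells, was the least abundant member in every group. It stood at 10.4 and 9.34 TPM in NC cells, at 36.6 and 32.3 TPM with LPS, at 17.6 and 32.3 TPM with C498 alone and at 24.1 and 39.2 TPM with C498+LPS. Both NC samples lay below all others, and the remaining 3 groups overlapped, so no order among them can be given. The C498 samples differed from each other by more than the LPS samples did.

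**Figure D2:**
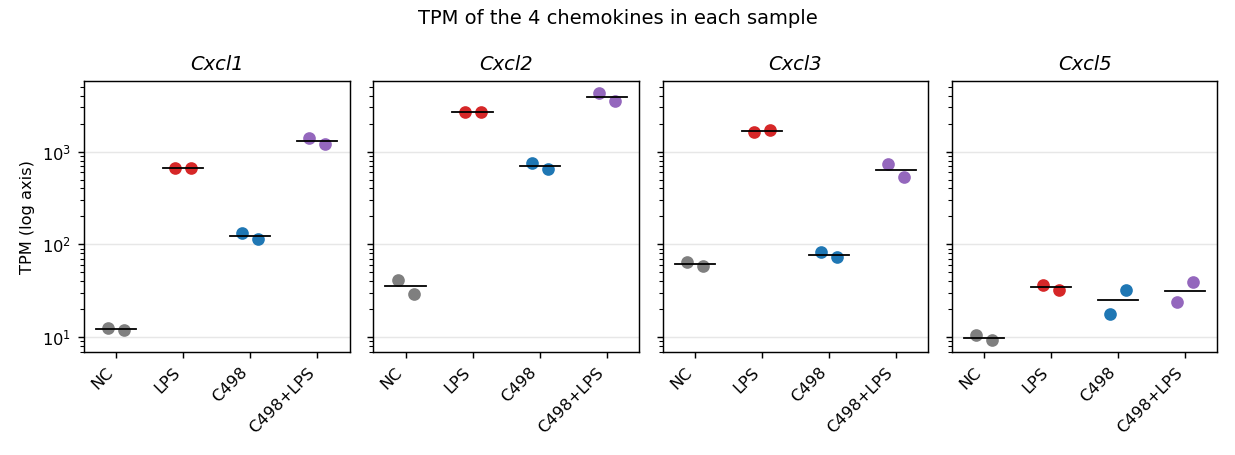
TPM of each chemokine in each sample on a log axis, with 2 points per group and a line at the group mean. Cxcl1 and Cxcl2 were highest in C498+LPS (means 1307 and 3869 TPM), Cxcl3 was highest in LPS (1668 TPM), and the Cxcl5 points overlapped in all groups but NC.

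LPS alone raised all 4 members. Against NC, the log2 change of TPM + 1 was 5.63 for Cxcl1 (SE 0.11, adjusted p = 4.59e-07), 6.22 for Cxcl2 (SE 0.17, adjusted p = 1.7e-06), 4.75 for Cxcl3 (SE 0.16, adjusted p = 4.24e-06) and 1.70 for Cxcl5 (SE 0.31, adjusted p = 0.00681). The ratios of mean TPM were 53.4, 75.5, 27.3 and 3.48. Genes were called when the fold change was at least 2 and the adjusted p (limma, Benjamini-Hochberg over all tested genes) at most 0.05, a rule that called 5.55% of tested genes up and 6.68% down in this comparison. The median change over all tested genes was -0.17, and ordered by change Cxcl2 ranked 5, Cxcl1 9, Cxcl3 21 and Cxcl5 304 from the top. The call of Cxcl5 was lost without LPS replicate 1 (log2 change 1.61, adjusted p = 0.058).

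C498 alone, without any LPS, raised Cxcl1 and Cxcl2 and left Cxcl3 near its NC level. The log2 change against NC was 3.20 for Cxcl1 (SE 0.11, adjusted p = 1.83e-05; ratio of means 9.87) and 4.28 for Cxcl2 (SE 0.17, adjusted p = 3.67e-05; ratio 19.7). For Cxcl3 it was 0.34, with a 95% interval from -0.032 to 0.72 and an adjusted p of 0.189. Cxcl5 was called up at 1.19 (SE 0.31, adjusted p = 0.0428), but its 2 samples were unlike and the call was lost when any sample was left out, with changes from 0.77 without C498 replicate 2 to 1.61 without C498 replicate 1. The rule called 5.64% of tested genes up and 1.36% down, and Cxcl2 ranked 9 and Cxcl1 28 from the top, against 3305 for Cxcl3.

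Markers of other cell types moved with C498 as well. Of 6 fibroblast markers (Col1a1, Col1a2, Col3a1, Dcn, Lum, Pdgfra), 5 were tested and all 5 were called up in C498 vs NC, with a median log2 change of 2.00, and 4 were called up in C498+LPS vs LPS, with the same median to this precision. The call of Pdgfra in C498 vs NC (1.48) was lost with no filter, with the compared groups alone and without NC replicate 2 (1.12), C498 replicate 1 (1.55) or C498 replicate 2 (1.40). The summed level of the 6 was 150 to 192 TPM in NC, 176 to 200 TPM in LPS, 633 to 750 TPM in C498 and 618 to 911 TPM in C498+LPS. Mesothelial markers summed to 5.03 to 6.51 TPM in the samples without C498 and 17.4 to 29.4 TPM in those with it, and of the 5 tested 2 were called up in C498 vs NC and 3 in C498+LPS vs LPS. These mesothelial calls were fragile: without C498 replicate 2 both calls in C498 vs NC were lost (Wt1 1.27, adjusted p = 0.083; Krt19 1.24, adjusted p = 0.101), and without LPS replicate 1 all 3 in C498+LPS vs LPS were lost (Wt1 1.44, Krt19 1.63 and Upk1b 1.04, adjusted p from 0.0616 to 0.233). Outside C498+LPS replicate 2, mast cell markers summed to 8.81 to 17.6 TPM and B and T cell markers to 3.05 to 6.16 TPM, and endothelial markers summed to 19.98 to 32.8 TPM over the 8 samples, although the endothelial cadherin gene Cdh5 stood at 4.37 TPM in C498+LPS replicate 2 and at 0.14 to 0.56 TPM elsewhere. The 8 macrophage markers were all present, and most of their sum was lysozyme, Lyz2, at 15984 to 15989 TPM in NC, 12790 to 13659 TPM in LPS, 11415 to 11579 TPM in C498 and 7831 to 9242 TPM in C498+LPS. Without Lyz2, the sum was 4115 to 4601 TPM in NC, 4813 to 5148 TPM in LPS, 4496 to 4524 TPM in C498 and 4590 to 4966 TPM in C498+LPS. That sum includes Cd14, which was higher with C498. In C498+LPS vs LPS, 7 of the 8 had a negative log2 change, with a median of -0.63 beside 0.0065 over all tested genes. None of the 8 was called by limma, and at an unadjusted p under 0.05 there were 5 lower and 1 higher. Of the 12189 tested genes, 3797 reached that p, in either direction. The F4/80 gene Adgre1 differed by -0.92 (adjusted p = 0.0047), the growth factor receptor gene Csf1r by -0.91 (adjusted p = 0.0154) and the Fc receptor gene Fcgr1 by -0.77 (adjusted p = 0.0186), all under the fold of 2. The exception was Cd14, 0.47 higher. In C498 vs NC the median was -0.27, with 6 negative, and Cd14 was the 1 gene called. The part of these shifts in the chemokine results was not tested, and in bulk RNA fewer cells of a type and less RNA per cell cannot be told apart.

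Several defining markers of neutrophils were at or near 0, and others were lower with C498. Elane and Ngp were listed at 0 in all 8 samples and Ly6g in all but C498 replicate 2 (2.62 TPM), while Cxcr2 did not exceed 0.1 TPM. Retnlg stood at 3.93 to 6.03 TPM without C498 and at 0.42 to 1.19 TPM with it, and was called down in C498 vs NC (-1.64, adjusted p = 0.00975) and C498+LPS vs LPS (-1.78, adjusted p = 0.00607), calls lost without C498 replicate 2 (-1.43) and without LPS replicate 1 (-1.73), respectively, and the former also with the compared groups alone. Csf3r stood at 35.2 to 38.6 TPM without C498 and at 13.2 to 18.9 TPM with it, and was called down in C498+LPS vs LPS (-1.26, adjusted p = 0.00191). Mmp8 stood at 43.1 to 125 TPM and Camp at 0.21 to 3.3 TPM. S100a8 stood at 48.9 to 128 TPM with its partner S100a9 listed at 0 in 5 samples and at 0.86 TPM or less in the others. The summed neutrophil list was 226 to 263 TPM without C498 and 129 to 157 TPM with it, and its part in the results was not tested.

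With LPS present, the members differed in the direction of their change with C498. Cxcl3 was lower in C498+LPS than in LPS, with a log2 change of -1.42 (SE 0.16, adjusted p = 0.00195; ratio of means 0.379). Cxcl1 was higher by 0.98, with a 95% interval from 0.72 to 1.23 and an adjusted p of 0.00195, and it missed the call because its fold was just under 2; without C498+LPS replicate 2 it was called, at 1.09, and Cxcl3 kept its call there at -1.18 (adjusted p = 0.0114). Cxcl2 was 0.52 higher (95% interval 0.12 to 0.93, adjusted p = 0.0821), and Cxcl5 differed by -0.15 (95% interval -0.88 to 0.57, adjusted p = 0.792). The rule called 5.39% of tested genes up and 2.18% down in this comparison. No member was called up by limma, while 2 members were higher and 1 lower at an unadjusted p under 0.05. Over all tested genes, 3797 of 12189 reached that p in this comparison, in either direction.

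LPS added to C498-treated cells still raised Cxcl1 by 3.40 (SE 0.11, adjusted p = 8.88e-06), Cxcl2 by 2.46 (SE 0.17, adjusted p = 0.000276) and Cxcl3 by 2.99 (SE 0.16, adjusted p = 8.99e-05) on the log2 scale. These are ratios of mean TPM of 10.7, 5.53 and 8.13. Cxcl5 differed by 0.35 (95% interval -0.37 to 1.08, adjusted p = 0.481). The rule called 2.52% of tested genes up and 3.13% down in C498+LPS vs C498.

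**Figure D3:**
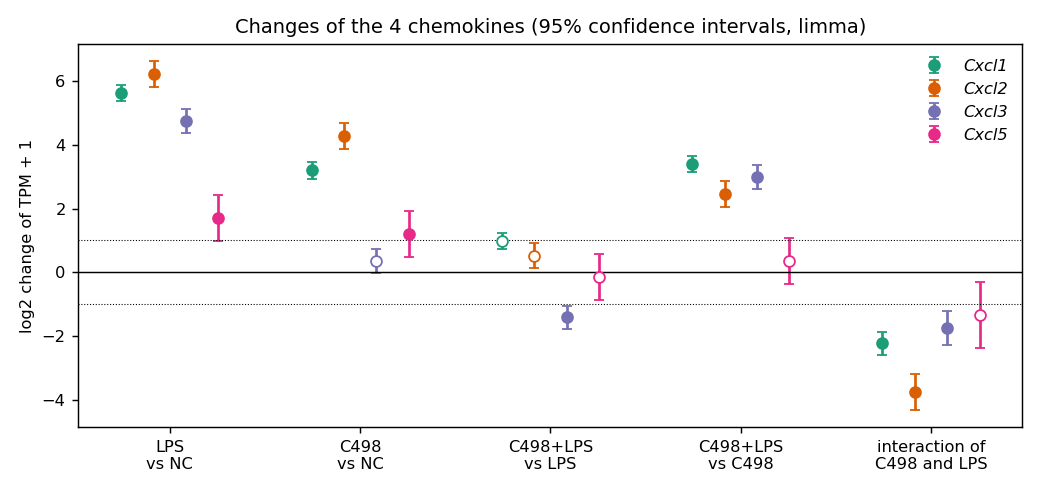
Log2 change of TPM + 1 (y axis) of the 4 chemokines in the 4 comparisons and the interaction (x axis), with 95% confidence intervals from limma. Filled points were called, open points were not, and dotted lines mark a fold of 2; in C498+LPS vs LPS the points spread from -1.42 for Cxcl3 to 0.98 for Cxcl1.

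The difference between the LPS responses with and without C498 was tested as an interaction, which uses all 4 groups and so shares its samples with the comparisons above. On the log2 scale it was -2.22 for Cxcl1 (SE 0.15, adjusted p = 0.00341), -3.76 for Cxcl2 (SE 0.24, adjusted p = 0.0031) and -1.76 for Cxcl3 (SE 0.23, adjusted p = 0.031), and these 3 were called. For Cxcl5 it was -1.35 (SE 0.44, adjusted p = 0.332). Calls were rare here, with 0.0738% of tested genes called up and 0.394% called down. The call of Cxcl3 was lost without either NC, either LPS or either C498 sample (adjusted p up to 0.198).

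The same negative value stood for different movements of the levels. For Cxcl2, LPS added 2643 TPM to vehicle cells (2636 to 2650 TPM over the sample pairs) and 3169 TPM to C498-treated cells (2748 to 3589 TPM). For Cxcl1 it added 650 TPM (646 to 653 TPM) and 1184 TPM (1075 to 1293 TPM). For these genes, then, the smaller fold went with a larger gain, from a start that C498 alone had already raised. For Cxcl3 it added 1607 TPM (1551 to 1662 TPM) to vehicle cells and 554 TPM (445 to 663 TPM) to C498-treated cells, so fold and gain were both smaller. The gain of Cxcl5 was 24.6 TPM (21.8 to 27.3 TPM) against 6.72 TPM (-8.21 to 21.7 TPM).

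Summed over the 4 members, the level was 119 ± 14.2 TPM in NC (SD, n = 2 here and below), 5043 ± 76.5 TPM in LPS, 925 ± 86.0 TPM in C498 and 5839 ± 796 TPM in C498+LPS. LPS thus added 4924 TPM in vehicle cells (4860 to 4988 TPM over the sample pairs) and 4914 TPM in C498-treated cells (4290 to 5537 TPM), and the make-up of the sum differed between the groups. Cxcl3 made up 51.5 ± 2.4% of the sum in NC, 33.1 ± 0.97% in LPS, 8.4 ± 0.03% in C498 and 10.7 ± 1.06% in C498+LPS. Cxcl2 made up 29.6 ± 3.62%, 53.1 ± 0.78%, 75.6 ± 1.32% and 66.3 ± 0.17% in the same order. Cxcl1 made up 10.5 ± 0.88%, 13.1 ± 0.12%, 13.2 ± 0.09% and 22.4 ± 0.63%, and Cxcl5 made up 8.35 ± 0.34% in NC, 0.68 ± 0.07% in LPS, 2.76 ± 1.38% in C498 and 0.56 ± 0.26% in C498+LPS.

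The shares of Cxcl1, Cxcl2 and Cxcl3 did not overlap in any of the 4 comparisons, and each exact permutation test of these shares gave p = 0.33 (two-sided), the smallest p that 2 samples against 2 allow. The ratio of Cxcl2 to Cxcl1 was 2.85 ± 0.58 in NC, 4.05 ± 0.02 in LPS, 5.71 ± 0.06 in C498 and 2.96 ± 0.07 in C498+LPS (exact permutation p = 0.33 in each of the 4 comparisons). The ratio of Cxcl1 to Cxcl3 was 0.203 ± 0.008 in NC, 0.397 ± 0.02 in LPS, 1.58 ± 0.02 in C498 and 2.1 ± 0.27 in C498+LPS. Every sample with C498 held more Cxcl1 than Cxcl3, and every sample without it held less.

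**Figure D4:**
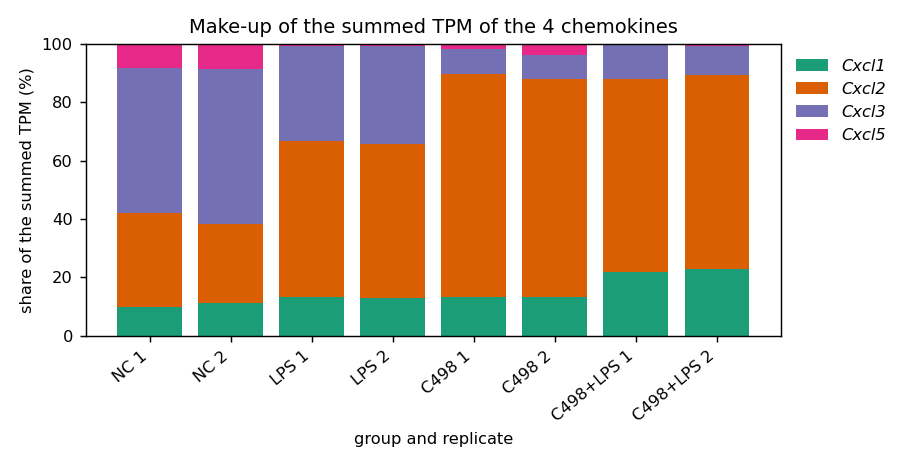
Share of each chemokine in the summed TPM of the 4 (y axis, percent) in each sample (x axis, group and replicate). The Cxcl3 share was 49.8% to 53.2% in NC and 8.38% to 11.5% in the samples with C498, and the replicates of a group resemble each other.

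The genes with the most similar profile over the 8 samples differed between the members. Likeness was the root mean square difference of log2(TPM + 1) after each gene was centred on its own mean, a description over points that share libraries and treatments. Cxcl1 was closest to Ccl4 (0.386), then to Cxcl2 (0.436), Ptgs2 (0.45), Ccl3 (0.643) and Cxcl10 (0.75). Cxcl2 was closest to Ptgs2 (0.362), the inducible cyclooxygenase, followed by Cxcl1, Ccl4 (0.635), Ccl3 (0.744) and Cxcl10 (0.983). Cxcl3 had none of these among its closest genes, which were the arginine transporter Slc7a2 (0.278), Cd69 (0.338), the interleukin-12 subunit gene Il12b (0.339), Cmpk2 (0.362) and Ppfia3 (0.386). Its distance to Cxcl1 was 1.36 and to Cxcl2 1.57. The closest genes of Cxcl5 were Fzd1 (0.247), Pcdh7 (0.251), Gbp4 (0.28), Axl (0.292) and Abtb2 (0.298).

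These genes were picked on the same 8 values, so their levels are given as a description. Ptgs2 had means of 4.09 TPM in NC, 487 in LPS, 78.8 in C498 and 788 in C498+LPS. Slc7a2 had means of 15 TPM in NC, 329 in LPS, 17.5 in C498 and 174 in C498+LPS.

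The receptors through which these ligands act were at the floor of the data. Cxcr2 lay between 0 and 0.1 TPM, Cxcr1 between 0 and 0.8 TPM and the atypical receptor Ackr1, which binds chemokines without signaling, between 0 and 0.49 TPM, so none of the 3 was tested.

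Of 11 other CXC ligands, 7 were tested. The interferon-induced ligands Cxcl10 and Cxcl9, which draw T cells, were called up by LPS (log2 change 6.71 and 1.56), and the median over the 7 was 0.087 in LPS vs NC, -0.014 in C498 vs NC and -0.34 in C498+LPS vs LPS. With C498 alone Cxcl10 was called up (2.22, adjusted p = 0.000121) and so was Cxcl12, a homing signal made by stromal cells (1.07, adjusted p = 0.0239), but the call of Cxcl12 was lost in 9 alternatives, among them centring (0.95), NC replicate 2 left out (1.00), C498 replicate 1 left out (1.24) and C498 replicate 2 left out (0.91). Cxcl10 stood at 23.5 and 26.6 TPM in NC, 2716 and 2744 TPM in LPS, 131 and 110 TPM in C498 and 2011 and 2324 TPM in C498+LPS, and its change in C498+LPS vs LPS was -0.34 (adjusted p = 0.105). Pf4, a platelet factor of the same cluster on chromosome 5, was called down in C498+LPS vs LPS (-1.44, adjusted p = 0.000625), from 612 and 702 TPM to 260 and 222 TPM. In the same comparison Cxcl9 was called up (1.44, adjusted p = 0.00671) and so was Cxcl12 (1.35, adjusted p = 0.00916). The call of Cxcl9 was lost without LPS replicate 2 or C498+LPS replicate 2, at log2 changes of 1.36 and 1.27, and that of Cxcl12 without LPS replicate 1 (1.27), LPS replicate 2 (1.44) or C498+LPS replicate 2 (1.06). Cxcl16 stood at 178 to 293 TPM, Cxcl13 at 6.93 to 14.1 TPM and Cxcl14 at 3.23 to 6.56 TPM. Cxcl12 stood at 3.99 to 15.6 TPM. Ppbp and Cxcl11 stayed at 1.27 TPM or less, and Cxcl15 and Cxcl17 were listed at 0 in all samples.

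Among 30 genes of the path from Tlr4 to NFκB, 12 were called up by LPS, 4 by C498 alone and 7 in C498+LPS vs C498, where Tlr4 was called down (-1.25, adjusted p = 0.0312). In that comparison the calls of Tlr4 and Rel were each lost when any single C498 or C498+LPS sample (-1.53 to -0.98 for Tlr4 and 0.96 to 1.20 for Rel) or LPS sample was left out, and that of Tnfaip3 without C498 replicate 1 (1.25), C498 replicate 2 (1.15) or C498+LPS replicate 1 (1.14). The median log2 change of the list was 0.76 in LPS vs NC, 0.33 in C498 vs NC and -0.13 in C498+LPS vs LPS, beside -0.17, 0.014 and 0.0065 over all tested genes. The 4 called up by C498 alone were the NFκB co-activator Nfkbiz (1.62, adjusted p = 0.00298), the ubiquitin-editing brake Tnfaip3 (1.83, adjusted p = 0.00124), the NFκB subunit Rel (1.40, adjusted p = 0.0191) and the LPS co-receptor Cd14 (1.47, adjusted p = 0.000121). All 4 were among the 12 raised by LPS, by 3.67, 2.69, 1.71 and 2.41. Nfkbia, whose protein holds NFκB in the cytoplasm, rose by 2.07 with LPS (adjusted p = 4.01e-05) and was 0.81 higher with C498 alone (adjusted p = 0.00567), under the fold of 2. With only the compared groups in the fit, the calls of Nfkbiz (adjusted p = 0.0533) and Rel (adjusted p = 0.111) in C498 vs NC and that of Rel in LPS vs NC (adjusted p = 0.0531) were lost. That of Rel in C498 vs NC was also lost with no filter (adjusted p = 0.0566) and without NC replicate 2 (0.98), C498 replicate 1 (1.28) or C498 replicate 2 (1.52).

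In C498+LPS vs LPS, 3 genes of this list were called down. They were the LPS receptor Tlr4 (-1.10, adjusted p = 0.0446), the inhibitory kinase Irak3 (-1.17, adjusted p = 0.00671) and the IKK scaffold Ikbkg (-1.14, adjusted p = 0.0109). Tlr4 fell from 14.1 and 12.6 TPM to 7.1 and 4.53 TPM. These calls were near the threshold. That of Tlr4 was lost in 9 of the alternatives, among them each sample of the compared groups left out. The calls of Irak3 and Ikbkg were lost without LPS replicate 1 (-1.11 and -0.97) or C498+LPS replicate 2 (-0.96 and -0.98), and that of Irak3 also without LPS replicate 2 (-1.22). No gene of the list was called up in this comparison by limma, while 3 were higher and 8 lower at an unadjusted p under 0.05. That p was reached by 3797 of the 12189 tested genes, in either direction. Myd88, the adaptor of Tlr4, rose by 1.25 with LPS (adjusted p = 0.000108) and was 0.83 lower with C498+LPS than with LPS, at 100 and 98.1 TPM against 180 and 174 TPM (adjusted p = 0.00156), under the fold of 2.

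**Figure D5:**
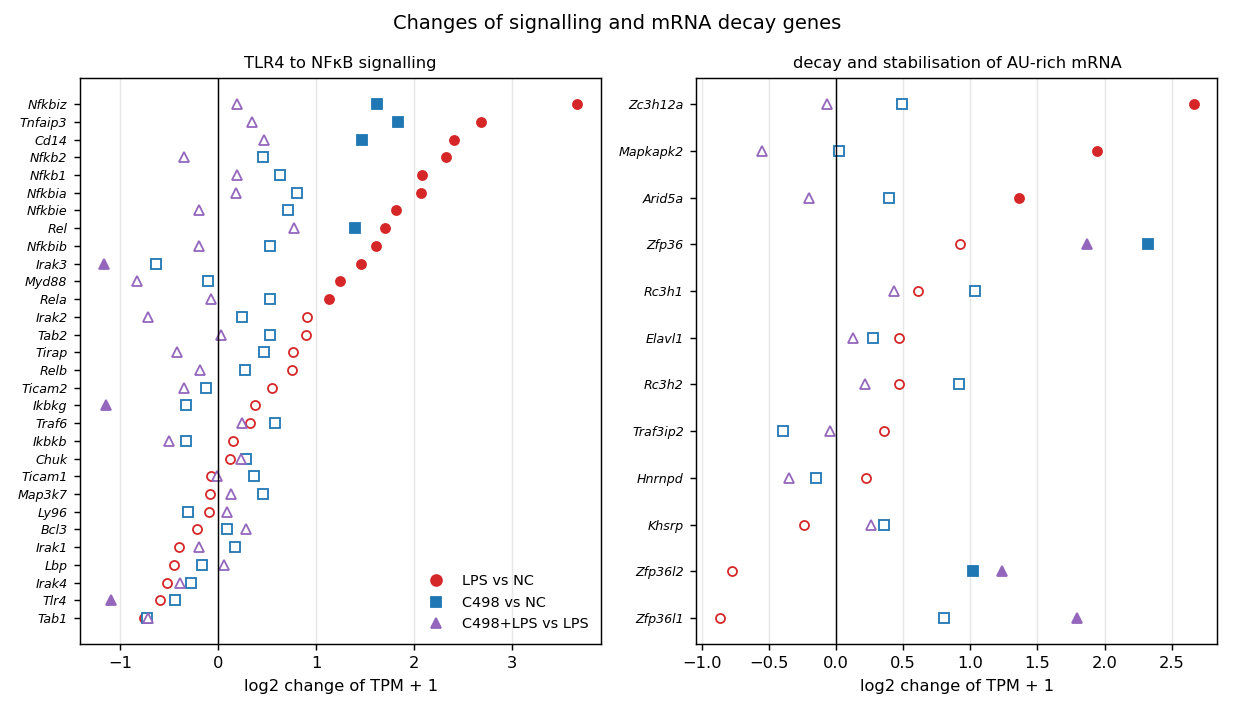
Log2 change of TPM + 1 (x axis) of the 30 genes of the Tlr4 to NFκB list (left) and the 12 genes of the mRNA decay list (right) in 3 comparisons, filled where called. Circles are LPS vs NC, squares C498 vs NC and triangles C498+LPS vs LPS; Zfp36 and Zfp36l2 are filled for both comparisons of C498 and not for LPS.

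The pentamer ATTTA, the core of AU-rich elements, was counted in the 3 prime untranslated regions of the members. It occurred 7 times in the 592 bases of Cxcl1, 11 times in the 734 bases of Cxcl2, 5 times in the 645 bases of Cxcl3 and 5 times in the 1111 bases of Cxcl5. Among annotated regions within 10% of the same length, 0.462% held at least as many copies as Cxcl1, 0.081% as Cxcl2, 3.69% as Cxcl3 and 14.4% as Cxcl5. The longer form TATTTAT, bound by Zfp36, occurred 6 times in Cxcl1, 7 in Cxcl2, 2 in Cxcl3 and 1 time in Cxcl5, and 0.092%, 0.162%, 4.16% and 29.9% of regions of like length held at least as many.

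Of 12 genes that decay or stabilise such transcripts, 3 were called up by LPS, 2 by C498 alone and 3 in C498+LPS vs LPS, with median log2 changes of 0.47, 0.44 and 0.17. Zfp36, which speeds the decay of AU-rich transcripts, stood at 35.3 and 31.1 TPM in NC, 66.9 and 61 TPM in LPS, 178 and 162 TPM in C498 and 234 and 239 TPM in C498+LPS. Its log2 change was 2.32 in C498 vs NC (adjusted p = 4.07e-05) and 1.87 in C498+LPS vs LPS (adjusted p = 0.000279), and 0.93 with LPS alone (adjusted p = 0.000996), under the fold of 2. Its relatives Zfp36l1 and Zfp36l2 were called up in C498+LPS vs LPS as well, by 1.79 (adjusted p = 0.00427) and 1.24 (adjusted p = 0.0056). The call of Zfp36l2 was lost without LPS replicate 2 (adjusted p = 0.0591) or C498+LPS replicate 2 (adjusted p = 0.0568). With C498 alone Zfp36l2 rose by 1.02 (adjusted p = 0.0134), a call lost with centring (0.90), with the compared groups alone and without NC replicate 2 (0.74), C498 replicate 1 (0.93) or C498 replicate 2 (1.12). The 3 called up by LPS were the RNase gene Zc3h12a (2.66), the kinase gene Mapkapk2 (1.95) and the transcript stabiliser Arid5a (1.36), and in C498+LPS vs LPS these differed by -0.07, -0.55 and -0.20.

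Of 15 other mediators that direct or arm neutrophils, 12 were tested, and 9 were called up by LPS, 6 by C498 alone and 1 in C498+LPS vs LPS, with median log2 changes of 2.95, 0.99 and -0.012. The leukotriene enzyme gene Alox5 was called down by C498 alone (-1.06, adjusted p = 0.038), from 3.08 and 2.49 TPM to 0.95 and 0.67 TPM, a call lost when any single NC or C498 sample was left out (-1.18 to -0.95). The call of Csf2 in LPS vs NC (1.53) was lost with a pseudocount of 0.1 TPM (2.92, adjusted p = 0.0822), with no filter (adjusted p = 0.0643) and without NC replicate 2 (1.24), LPS replicate 1 (1.67) or LPS replicate 2 (1.40). The chemokines Ccl3 and Ccl4 were among the 5 genes closest to Cxcl1 and to Cxcl2, a likeness picked on these same values. With LPS present, Ccl3 did not follow Cxcl1 and Cxcl2. Its mean was 5712 TPM in C498+LPS and 5946 TPM in LPS, and the samples overlapped. Ccl3 stood at 212 and 190 TPM in NC, 5953 and 5940 TPM in LPS, 1339 and 1135 TPM in C498 and 6133 and 5291 TPM in C498+LPS. Ccl4 changed by 2.61 in C498 vs NC (adjusted p = 3.31e-05) and by 0.43 in C498+LPS vs LPS (adjusted p = 0.0291). Csf3, the growth factor of neutrophils, rose by 1.85 with C498 alone (adjusted p = 0.00103) and by 3.38 with LPS (adjusted p = 2.95e-05). Tnf rose by 5.40 with LPS and by 1.13 with C498 alone, and was 0.57 lower in C498+LPS than in LPS, at 1588 and 1347 TPM against 2157 and 2190 TPM (adjusted p = 0.00961), under the fold of 2. Il1b stood at 19.1 and 15.9 TPM in NC, 1626 and 1640 TPM in LPS, 37.3 and 35.1 TPM in C498 and 1443 and 1137 TPM in C498+LPS. It rose by 6.47 with LPS (adjusted p = 5.42e-07) and by 1.01 with C498 alone (adjusted p = 0.00453), the latter call lost with centring (0.89), with the compared groups alone and without NC replicate 2 (0.89) or C498 replicate 1 (0.97). Il17a was the gene called up in C498+LPS vs LPS (1.61, adjusted p = 0.00671), from 6.24 and 8.03 TPM to 20.1 and 27.9 TPM, a call lost without LPS replicate 1 (1.45) or C498+LPS replicate 2 (1.38). It was higher with C498 in the absence of LPS too, at 8.28 and 9.89 TPM against 0.68 and 0.2 TPM in NC.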

How the data were processed

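RNA of 8 samples was sequenced as paired reads of 150 bases. According to the submitters' processing notes and the study's methods, the authors used fastp for filtering, HISAT2 for alignment, StringTie for assembly and RSEM for quantification; versions and build are not given in the sources used here. The authors deposited TPM per gene and sample, 1 table for the series, together with means per group and annotation columns, which were not used. The samples share 1 total, so depth is unknown and no count test was run.

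Values were transformed as log2(TPM + 1), which draws changes of low genes towards 0. The 12189 genes whose mean TPM reached 1 were fitted with limma 3.58.1 in R 4.3.3, each group having its own mean, with all 8 samples and a variance trend. Adjusted p are by Benjamini-Hochberg within a comparison. A gene was called when its fold reached 2 with an adjusted p not above 0.05. Intervals are 95%. The steps were tested on simulated data. Shares and ratios were compared by exact permutation tests (scipy 1.17.1). Coordinates come from GENCODE M21 (GRCm38), which holds 11874 of the tested identifiers, and promoter windows from RefSeq (GRCm38.p6). All pathway and marker lists were drawn up by name. The members and lists were chosen with earlier results of these data known. The rule named the members, all receptors and other CXC ligands and the 5 tested genes closest to each member, and allowed any list gene called in a comparison. Which of the called list genes appear, and the few uncalled ones beside them, was chosen after their values were seen; each list's counts cover all its tested genes. Across tested genes, Pearson's r between replicates was 0.962 (NC), 0.981 (LPS), 0.970 (C498) and 0.971 (C498+LPS). Alternatives were a pseudocount of 0.1, no filter, a mean TPM of at least 5, median centring, quantile normalization, no variance trend, a fit of the compared groups only, a replicate block, no fold threshold and each sample left out.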

Additional observations from a re-analysis of the deposited data

Results flagged for a closer look

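For 10 genes named above, the LPS response with C498 differed from that without it by the interaction test on the log2 scale (limma, adjusted over all tested genes), and in all 10 the log2 response was smaller with C498. Among all tested genes the interaction was called down for 48 and up for 9, so most called genes had this direction. On the TPM scale, looked at after seeing the data, 6 of the 10 gained less from LPS with C498 and 4 gained more, namely Cxcl1, Cxcl2, Ccl4 (2618 against 2182 TPM) and Cd14 (1121 against 1058 TPM), for which the direction depends on the scale. Among the members the difference was -2.22 for Cxcl1, -3.76 for Cxcl2 and -1.76 for Cxcl3. Among the other genes it was -2.55 for Cxcl10, -2.68 for Ccl3, -2.18 for Ccl4, -1.70 for Tnf, -1.81 for Csf3, -1.36 for Il1b and -1.0 for Cd14. The call of Tnf was lost with no variance trend and without LPS replicate 1 (-1.71) or LPS replicate 2 (-1.69). Those of Cd14, Csf3 and Il1b were lost with no filter, with no variance trend and when any single sample of LPS, C498 or C498+LPS was left out, that of Cd14 also with centring (-0.96) and without NC replicate 1 (-0.95), and those of Csf3 and Il1b also without NC replicate 2 (-1.63 and -1.24). With 2 samples a group, no sample could be checked as an outlier.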

How the results depend on the processing

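Of 316 recomputed log2 changes of members, 291 kept direction and side of the threshold. The exceptions outside the samples left out were Cxcl5 in C498 vs NC, which lost its call with no filter, no variance trend or the compared groups alone (1.19 each), with centring (1.07) and with quantile normalization (1.15), and the interaction of Cxcl3, which lost it with no filter or no trend (-1.76 each). Leaving out each sample in turn gave 1.61 to 1.79 for Cxcl5 in LPS vs NC, 0.77 to 1.61 for Cxcl5 in C498 vs NC, 0.87 to 1.09 for Cxcl1 and -0.49 to 0.19 for Cxcl5 in C498+LPS vs LPS (positive without C498+LPS replicate 1), -0.068 to 0.77 for Cxcl5 in C498+LPS vs C498 (negative without C498 replicate 1) and -2.0 to -1.52 for the interaction of Cxcl3. The number of members called up in C498+LPS vs LPS was 0 and became 1, Cxcl1, without C498+LPS replicate 2 and with no fold threshold, and was 0 to 1 over the samples left out. On the TPM scale, a comparison chosen after seeing the data, the difference of the LPS gains was 535 for Cxcl1 and 525 for Cxcl2, opposite in sign to the log2 interaction. The replicate block left every member's call as it was (interaction of Cxcl3 -1.76, adjusted p = 0.0161) and moved called-up genes in LPS vs NC from 677 to 696; the replicate numbers share only a number, with correlations of deviations from 0.04 to 0.168 between groups. Counts of all called genes (up, down) were 677 and 814 in LPS vs NC (853 and 530 centred, 510 down by quantile, 1200 and 2409 with no fold threshold), 687 and 166 in C498 vs NC (452 up at a mean TPM of 5, 306 and 73 with the compared groups alone, 269 and 266 down by centring and quantile, 1132 and 754 with no fold threshold, 274 to 1186 and 71 to 215 over samples left out), 657 and 266 in C498+LPS vs LPS (382 up at a mean TPM of 5, 1107 and 938 with no fold threshold, 300.0 to 677 and 141 to 279), 307 and 381 in C498+LPS vs C498 (196 down by centring, 550 and 1430 with no fold threshold, 181 to 319 and 183 to 401) and 9 and 48 for the interaction (3 and 15 with no filter, 3 and 9 with no trend, 0 to 28 and 9 to 64). Centring raised the share of called genes that were up from 45.4% to 61.7% in LPS vs NC and from 44.6% to 68.9% in C498+LPS vs C498 and lowered it from 80.5% to 67.7% in C498 vs NC; quantile normalization gave 60.1%, 61.0% and 67.3%. Centring moved the median change of all tested genes from -0.17 to -0.00054 in LPS vs NC and from -0.18 to 0.038 in C498+LPS vs C498. With 2 samples a group, changes under a fold of 2 and levels of a few TPM are poorly resolved.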
